A study of Mus musculus with 6 samples.

Results

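The genes described here are 10 transcripts of the integrated stress response, the transcription factor Atf4 together with Atf3, Atf5, Ddit3, Asns, Trib3, Chac1, Sesn2, Cebpb and Ppp1r15a. They were chosen by symbol from the pathway, with earlier results of these data known, and all 10 were found among the 23504 genes of the expression table. They were measured by RNA-seq in bone marrow–derived macrophages (BMMs), cells grown from mouse marrow that can fuse into bone-resorbing osteoclasts when exposed to RANKL. The BMMs came from male C57BL/6 mice 6 to 8 weeks old with no genetic change. In 3 libraries the cells had received DASA-58, a small molecule that activates the glycolytic enzyme pyruvate kinase M2 (PKM2), and in 3 libraries an equal volume of its solvent DMSO, and RNA was taken after 3 days. The concentration used for these libraries was not given in the sources used here. The sources differ on RANKL: the account of the results has both groups induced with it, while the account of the method names it for the DASA-58 group alone, where the compound is also written DASA-48. The labels do not say whether the 3 libraries of a group came from separate animals or cultures, so p-values measure the spread between these libraries, which may be technical.

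The integrated stress response is a shared reaction of cells to amino acid shortage, unfolded protein in the endoplasmic reticulum (ER), viral RNA or heme shortage. Each of these activates a kinase that phosphorylates the translation factor eIF2, which slows most protein synthesis while the ATF4 protein is made more efficiently from its mRNA. ATF4 then switches on genes for amino acid uptake and synthesis, further transcription factors such as ATF3 and CHOP, and feedback genes that restore translation. Because ATF4 is controlled largely in translation, its mRNA level is not a measure of its protein.

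The 6 libraries held between 18191560 and 18968556 fragments, and levels are given in FPKM, the fragments of a gene scaled for its length and for the depth of the library. All 9 macrophage markers were present in every library, with 4 higher and 1 lower with DASA-58. The 7 tested osteoclast markers were all lower with DASA-58, and their summed level was 754 to 807 FPKM in DMSO libraries against 433 to 450 FPKM in DASA-58 libraries. Of 6 tested neutrophil markers 3 were lower with DASA-58 (summed level 126 to 132 against 102 to 106 FPKM), of 3 stromal markers none was called in limma (33.7 to 35.8 against 34.2 to 35.1 FPKM, 1 lower at an unadjusted p under 0.05 and 1 with voom), and markers of B cells, dendritic cells, erythroid cells and mast cells summed to under 1 FPKM in each library. Of those listed, 2 of 4 B cell, 3 of 4 dendritic cell and 1 of 4 erythroid markers were in the table, so these sums leave out the others. Of the T and NK cell markers only Cd4 had a mean above 1 FPKM. The part of these marker changes in the results on the members was not tested, and in bulk RNA fewer cells of a type and less RNA per cell cannot be told apart. Over the whole table, 10965 genes had a mean of at least 1 FPKM and were tested with limma on log2(FPKM + 1), with p-values adjusted by Benjamini-Hochberg over all of them and an adjusted p under 0.05 taken as a call. Of these 4.24% were called higher and 7.28% lower with DASA-58, and their median log2 fold change was -0.03. Of the calls 36.8% were higher, and 54.2% were when libraries were centred on the median gene. The point value was below 0 in 59.8% of the tested genes, and in 50.3% with that centring.

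All 10 members were expressed above the filter. With DASA-58, 2 of 10 rose (Atf5 and Atf3), 1 of 10 fell (Atf4) and 7 of 10 were not called, against 11.5% of all tested genes called in either direction. The median log2 fold change of the members was 0.05. The 3 libraries of one group lay entirely above those of the other for 5 of the 10 members, while this was so for 33.4% of all tested genes. The called members changed in both directions, and with 10 genes these shares are a description only.

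**Figure D1:**
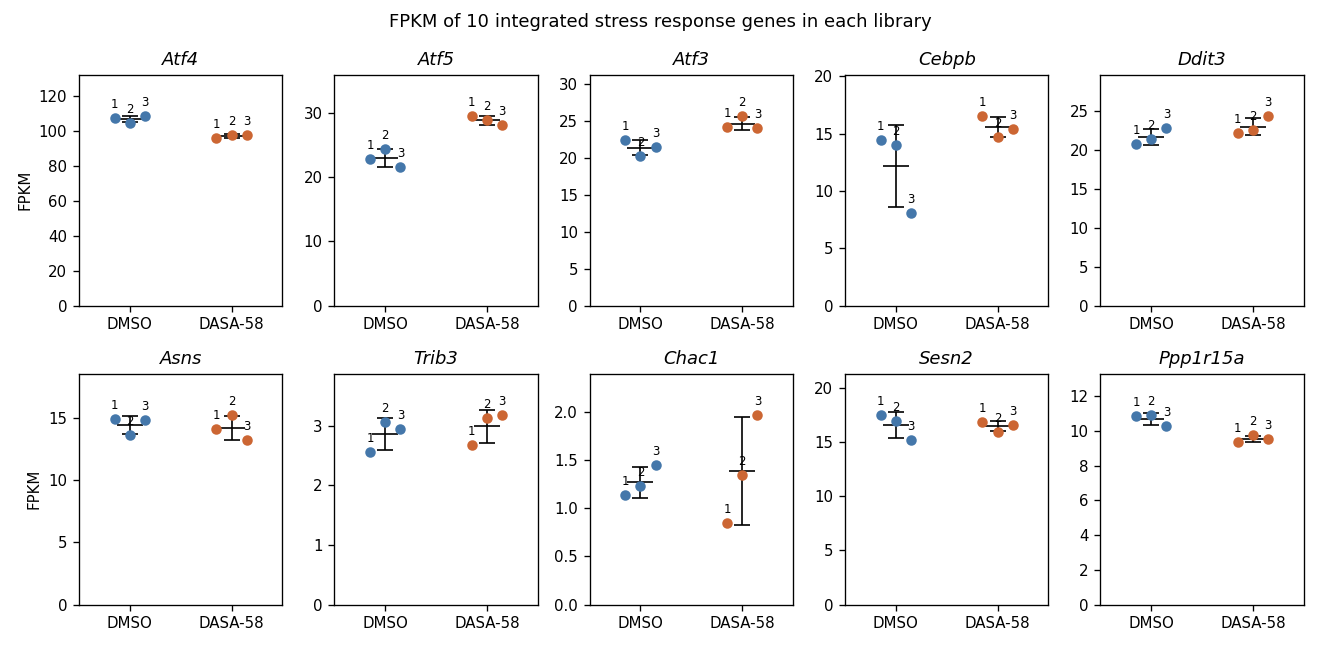
FPKM of each of the 10 members in the 6 libraries, one panel per gene, with numbered points for the replicates of DMSO and DASA-58 and bars for the mean ± SD of 3 libraries. Atf5 and Atf3 sit higher with DASA-58, Atf4 and Ppp1r15a sit lower, and DMSO replicate 3 of Cebpb at 8.07 FPKM lies far below the other 5 libraries.

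Atf4 had by far the highest level of the 10, at the 95.4th percentile of the tested genes. The level was 107.7, 104.8 and 108.4 FPKM in the 3 DMSO libraries and 96.11, 97.76 and 97.61 FPKM in the 3 DASA-58 libraries. All 3 values with DASA-58 lay under the lowest with DMSO. The mean fell from 107 ± 1.93 to 97.2 ± 0.91 FPKM (SD, n = 3 each), which is 90.8% of the DMSO level, with a log2 fold change of -0.14 (SE 0.03, limma adjusted p = 0.015). Between 3066 and 3408 fragments stood behind each value. The gene lies at chr15:80255184-80257541 on the plus strand in GRCm38 as a single exon block of 2358 bases, but the FPKM values correspond to a length of 1724 bases, so its level relative to other genes depends on that length while the comparison between libraries does not. The call was lost without DMSO replicate 1 (adjusted p = 0.058), without DASA-58 replicate 1 (adjusted p = 0.058) and without DASA-58 replicate 3 (adjusted p = 0.055). It was also lost without the variance trend (adjusted p = 0.061) and with a trend with GC content removed in each library (log2 fold change -0.10, adjusted p = 0.066), and the change stayed between -0.15 and -0.10 on the log2 scale under every alternative run.

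Atf5, a related bZIP factor whose mRNA is translated under the same control and which serves in the mitochondrial stress response, changed the most among the called members. It stood at 22.86, 24.3 and 21.6 FPKM with DMSO and at 29.39, 28.91 and 28.04 FPKM with DASA-58. All DASA-58 libraries were above all DMSO libraries, with a clear gap. The mean rose from 22.9 ± 1.35 to 28.8 ± 0.686 FPKM (log2 fold change 0.32, SE 0.05, limma adjusted p = 0.005). It was called under 18 of 19 alternatives. Atf5 (chr7:44812256-44816658, minus strand, GRCm38) shares 82 exon bases on the opposite strand with Nup62, a nuclear pore gene whose level went from 43.6 to 48.6 FPKM (log2 fold change 0.15, limma adjusted p = 0.023). Whether fragments were counted by strand was not given in the sources used here, so fragments from those bases cannot be assigned between the genes.

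Atf3, a bZIP repressor induced by many stresses, stood at 22.44, 20.32 and 21.52 FPKM with DMSO and at 24.26, 25.65 and 24.11 FPKM with DASA-58. The groups did not overlap. The mean rose from 21.4 ± 1.07 to 24.7 ± 0.848 FPKM (log2 fold change 0.20, SE 0.04, limma adjusted p = 0.03). This call was the least firm of the 3, kept under 9 of 19 alternatives. It was lost without the filter on low values (adjusted p = 0.086) and with equal library totals (adjusted p = 0.056). The same held without the variance trend (adjusted p = 0.062), without variance shrinkage (adjusted p = 0.12) and with the replicate number as a block (adjusted p = 0.07). The call was also lost without any one of 5 libraries (DMSO replicates 2 and 3 and each DASA-58 replicate), with adjusted p from 0.066 to 0.094. Without DMSO replicate 1 the adjusted p was 0.038.

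Because Atf4 fell while Atf5 and Atf3 rose, the balance between them was also taken within each library, a comparison chosen after the values were seen and one that a single scaling factor per library does not alter. The FPKM ratio of Atf5 to Atf4 was 0.212, 0.232 and 0.199 with DMSO and 0.306, 0.296 and 0.287 with DASA-58. Its mean was 1.38-fold higher with DASA-58. The groups could not overlap, because those of Atf5 and of Atf4 each lay apart, in opposite directions. The ratio of Atf3 to Atf4 went from 0.200 ± 0.00735 to 0.254 ± 0.00779 and was 1.27-fold higher. For either ratio the exact two-sided permutation p was 0.1, the smallest that 3 against 3 libraries can give. That p was fixed by the separation of Atf5, Atf3 and Atf4 and adds no test.

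ATF4 and related bZIP factors are known to bind short motifs in promoters, so RefSeq promoters (GRCm38.p6) were searched over the 250 bases before each start, on both strands. The motifs were the C/EBP-ATF response element with the letters TGATGNAA, reverse TTNCATCA, and the cAMP response element with the palindrome TGACGTCA. All 10 members matched a RefSeq gene, with 11 windows because Atf5 has 2 starts. The first motif was in 3 of the 11 windows (Asns, Atf3 and Chac1) and in 3.45% of all 32851 windows, and the second in 1 of the 11 (Ppp1r15a) and in 1.55% of all. The matches are given 5′ to 3′ on the strand of the gene with the motif in capitals, because these are the letters ATF4 and its partners are known to read. They are at chr6:7693210-7693248 on the minus strand for Asns, chr1:191183420-191183459 on the minus strand for Atf3, chr2:119351033-119351072 on the plus strand for Chac1 and chr7:45526269-45526296 on the minus strand for Ppp1r15a.
Asns: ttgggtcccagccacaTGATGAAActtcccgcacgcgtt
Atf3: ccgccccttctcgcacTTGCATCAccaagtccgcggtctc
Chac1: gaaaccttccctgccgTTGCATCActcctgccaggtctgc
Ppp1r15a: gaccccgcctctccggTGACGTCAgcac
The motif ends 16 bases before the start in Asns, 103 bases in Atf3, 186 bases in Chac1 and 5 bases in Ppp1r15a, and in Atf3 and Chac1 it reads on the reverse strand. Of the 3 genes with the first motif, Atf3 was called higher and Asns and Chac1 were not called. A match of letters is a description and not evidence of binding in these cells.

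Ddit3, Asns and Sesn2, which are classical ATF4 targets, were not called in either direction. Ddit3, which encodes the factor CHOP that links prolonged ER stress to cell death, stood at 20.74, 21.4 and 22.76 FPKM with DMSO and at 22.07, 22.56 and 24.25 FPKM with DASA-58, and the groups overlapped (log2 fold change 0.08, 95% interval -0.03 to 0.19, limma adjusted p = 0.32). Its exons overlap 68 bases of Mars on the opposite strand and 105 bases of a second Ddit3 entry, not in the table, on the same strand, so its count is uncertain to that extent. Asns, asparagine synthetase, stood at 14.88, 13.6 and 14.82 FPKM and at 14.1, 15.21 and 13.26 FPKM (log2 fold change -0.02, interval -0.16 to 0.11, limma adjusted p = 0.83). Sesn2, a leucine-sensing restraint on the growth kinase mTORC1, stood at 17.5, 16.99 and 15.2 FPKM with DMSO and at 16.92, 15.95 and 16.63 FPKM with DASA-58, and the groups overlapped. Its interval ran from -0.13 to 0.12 on the log2 scale. For Asns and Sesn2 the sign of the point value depended on the scaling.

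The pair with the lowest levels rested on the fewest fragments. Trib3, a pseudokinase induced by CHOP that restrains ATF4, stood at 2.565, 3.07 and 2.946 FPKM with DMSO and at 2.674, 3.13 and 3.176 FPKM with DASA-58, on 100 to 128 fragments a library (log2 fold change 0.05, interval -0.13 to 0.23). Chac1, a glutathione-degrading enzyme, stood at 1.132, 1.231 and 1.443 FPKM with DMSO and at 0.8435, 1.343 and 1.964 FPKM with DASA-58, on 26 to 61 fragments. The DASA-58 libraries of Chac1 lay on both sides of the DMSO libraries, with an SD of 0.562 FPKM against 0.159 FPKM. Its interval of -0.33 to 0.42 on the log2 scale covers changes as large as that of Atf5 in either direction.

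Ppp1r15a encodes GADD34, the inducible subunit that directs a phosphatase to eIF2 and ends the response. It stood at 10.85, 10.91 and 10.3 FPKM with DMSO and at 9.385, 9.751 and 9.513 FPKM with DASA-58. The groups did not overlap and the mean was 89.4% of the DMSO level, but the adjusted p of 0.0501 in limma missed the threshold (log2 fold change -0.15, interval -0.24 to -0.06). Its constitutive counterpart Ppp1r15b was at 18.8 ± 0.795 and 18.6 ± 0.253 FPKM (log2 fold change -0.01, interval -0.10 to 0.08, limma adjusted p = 0.85). The ratio of Ppp1r15a to Ppp1r15b within each library, also chosen after the values were seen, was 0.570 ± 0.0343 with DMSO and 0.514 ± 0.00875 with DASA-58 (exact permutation p = 0.1). That p is the smallest that 3 against 3 libraries can give. Ppp1r15a was already known to lie apart between the groups and Ppp1r15b to overlap, so the ratio adds no test.

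Cebpb, a C/EBP factor that pairs with ATF4 and takes part in macrophage gene expression, had the largest point change of the 10 and yet was not called. It stood at 14.46, 13.97 and 8.07 FPKM with DMSO and at 16.49, 14.73 and 15.42 FPKM with DASA-58. The groups did not overlap, but DMSO replicate 3 alone made most of the difference. The log2 fold change was 0.37 (SE 0.18, interval -0.06 to 0.80, limma adjusted p = 0.24) and 0.12 without that library (adjusted p = 0.21). Cebpb has a GC content of 67.2% and lies at chr2:167688915-167690418 on the plus strand, where it shares 312 exon bases on the opposite strand with Tmem189 (30.1 FPKM in the mean of the DMSO libraries, 29.5 in that of the DASA-58 libraries), which leaves its count uncertain. In DMSO replicate 3 the 42 tested genes of at least 65% GC had a median log2 difference of -0.13 from the other DMSO libraries, and the 695 genes under 40% GC one of 0.07, while Cebpb itself was at -0.75. With the GC trend removed in each library the log2 fold change was 0.40 (adjusted p = 0.15). Cebpa, at 62.6% GC, was at -0.12 in the same library.

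**Figure D2:**
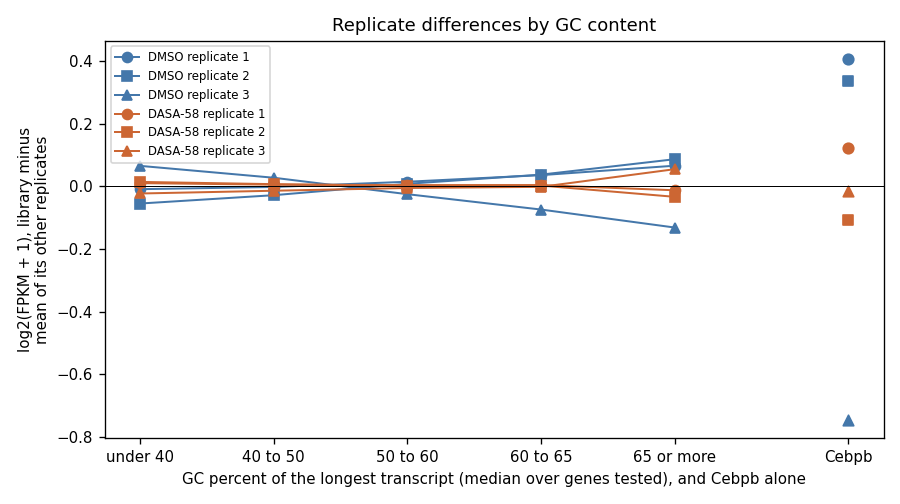
Difference of each library from the mean of its other replicates on log2(FPKM + 1) (y axis), as the median over tested genes in classes of GC percent (x axis, one line per library) and for Cebpb alone at the right. DMSO replicate 3 falls from 0.07 in genes under 40% GC to -0.13 in genes of at least 65% GC, and its value for Cebpb is -0.75.

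Ordered by level with DMSO, Atf4 was followed by Atf5, Ddit3 and Atf3, whose DMSO libraries overlapped one another, then by Sesn2, Asns, Cebpb and Ppp1r15a, and by Trib3 and Chac1 well below. Sesn2 and Asns did not overlap, whereas Cebpb overlapped both Asns and Ppp1r15a. With DASA-58, Atf5 stood above Atf3 and Ddit3 in all libraries, and Atf3 and Ddit3 overlapped. These are levels per length of gene and depend on the lengths used.

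**Figure D3:**
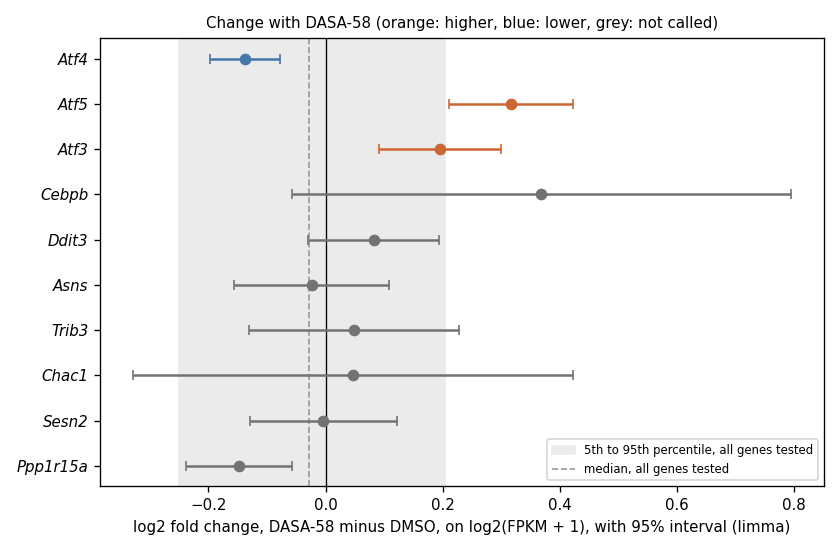
Log2 fold change of DASA-58 over DMSO on log2(FPKM + 1) for each of the 10 members (x axis), with the 95% interval from limma, over a shaded band from the 5th to the 95th percentile of all tested genes (-0.25 to 0.20). Atf5 lies above the band at 0.32 and Cebpb at 0.37 with an interval that crosses 0, and the others lie inside it.

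The step before ATF4 was read from the eIF2 kinases, which each sense another stress. None of the 4 was called in limma, where 11.5% of all tested genes were called in either direction. At an unadjusted p under 0.05, 1 was lower (Eif2ak1), and with voom weights 1 was lower, a different gene (Eif2ak2). Over all 10948 genes tested with voom, 742 were higher and 1327 lower. The share of all genes at an unadjusted p under 0.05 was not computed. Eif2ak1, the heme-regulated kinase, went from 15.3 ± 0.525 to 14.2 ± 0.380 FPKM (log2 fold change -0.10, limma adjusted p = 0.15). Eif2ak2, the kinase of double-stranded RNA, had a log2 fold change of -0.16, and Eif2ak3, the ER kinase PERK, one of -0.09. Eif2ak4, the amino acid sensor GCN2, had one of 0.06. In limma each of these had an adjusted p of at least 0.18, and Eif2ak2 was called under 1 of 19 alternatives, that with voom weights. Of the 8 genes for subunits of eIF2 and its exchange factor eIF2B, 1 fell and 0 rose, against 7.28% and 4.24% of all tested genes. At an unadjusted p under 0.05 the list had 5 lower and 0 higher, and with voom 3 lower and 0 higher. The called gene was Eif2b1, at 19.3 ± 0.806 and 17.3 ± 0.431 FPKM (log2 fold change -0.15, limma adjusted p = 0.0496), a call kept under only 4 of 19 alternatives and lost when any single library was left out. All 8 point values were below 0, as were 59.8% of those of all tested genes. With libraries centred on the median this was 8 of 8 and 50.3%. The median of the list was -0.12. Eif2s1, the subunit that is phosphorylated, had a log2 fold change of -0.11 (adjusted p = 0.075) and Eif2s3x one of -0.17 (adjusted p = 0.076). The 9 phosphatase and kinase regulators held 0 calls in limma, against 11.5% of all tested genes. They held 1 higher and 1 lower both at an unadjusted p under 0.05 and with voom. Ppp1cc, Gcn1l1 and Dnajc3 had log2 fold changes of 0.10, -0.13 and 0.10. mRNA levels say nothing of the phosphorylation of eIF2, which these data do not measure.

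The further targets of ATF4 were taken from lists of genes for amino acid transport and for metabolism and stress, 29 genes in all, of which 20 were above 1 FPKM and tested. Of the 20, 1 rose and 5 fell, with a median log2 fold change of -0.09, where 4.24% of all genes were higher and 7.28% lower. The lists differed. Of 6 tested transport genes 0 rose and 3 fell, with a median of -0.20. Of 14 tested genes of metabolism and stress 1 rose and 2 fell, with a median of -0.03, near that of all tested genes (-0.03). At an unadjusted p under 0.05, transport had 0 higher and 4 lower. Metabolism and stress had 4 higher and 3 lower, and these shares were not computed over all genes. The largest decrease was in Slc1a5, the transporter of glutamine and other neutral amino acids. It stood at 32.27, 31.54 and 30.32 FPKM with DMSO and at 24.1, 24.05 and 22.44 FPKM with DASA-58, so that every DASA-58 library was lower (log2 fold change -0.40, SE 0.04, limma adjusted p = 0.0011). Slc38a2, another carrier of neutral amino acids, fell from 50.7 ± 3.09 to 43.2 ± 1.44 FPKM (log2 fold change -0.22, limma adjusted p = 0.024), and Slc7a1, a carrier of cationic amino acids, fell from 3.98 ± 0.122 to 3.23 ± 0.133 FPKM (log2 fold change -0.24, limma adjusted p = 0.027). The call of Slc7a1 was lost when any single library was left out, and that of Slc38a2 without DMSO replicate 1 or 3 or without DASA-58 replicate 2 or 3.

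In the list of metabolism and stress, the stress-induced chromatin protein gene Nupr1 stood at 21.11, 22.41 and 22.22 FPKM with DMSO and at 18.21, 18.54 and 18.03 FPKM with DASA-58 (log2 fold change -0.25, limma adjusted p = 0.0046). Xpot, which exports tRNA from the nucleus, fell from 18.2 ± 0.799 to 15.9 ± 0.620 FPKM (adjusted p = 0.039), a call kept under 7 of 19 alternatives and lost without any one of the libraries other than DMSO replicate 2. The gene that rose was Sqstm1, which encodes the autophagy receptor p62 and is a known target of NRF2 as well as of ATF4. It went from 352 ± 4.88 to 401 ± 7.19 FPKM (log2 fold change 0.19, SE 0.02, limma adjusted p = 0.0036). Slc1a5, Nupr1 and Sqstm1 were called under all 19 alternatives.

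**Figure D4:**
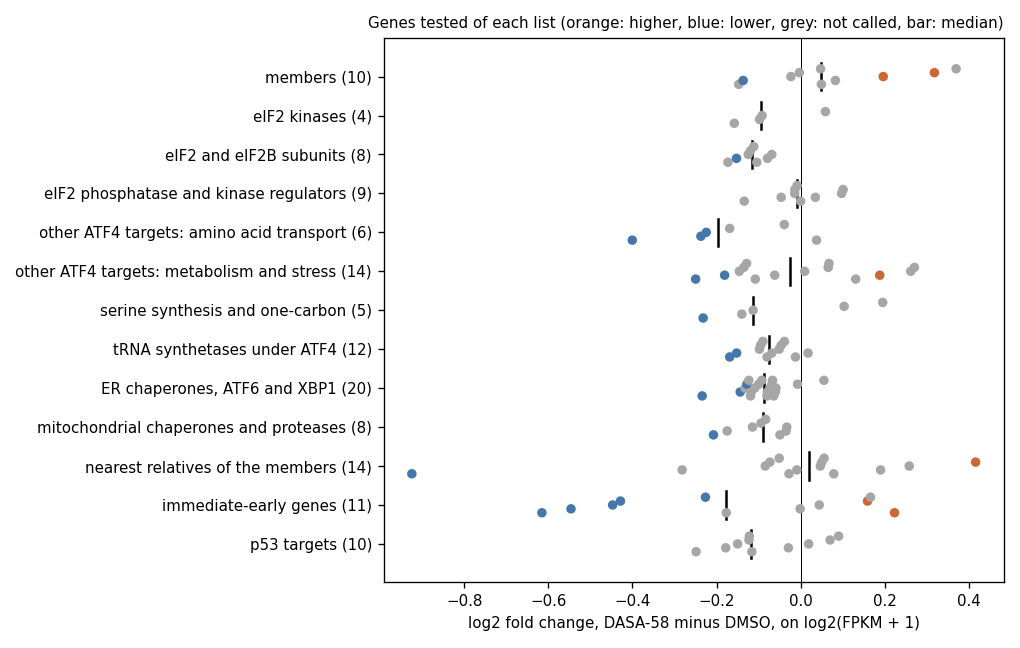
Log2 fold change of DASA-58 over DMSO (x axis) for every tested gene of each pathway list (one line of points per list), in orange where called higher, blue where called lower and grey where not called, with a bar at the median of each list and a line at 0. Among the lists of ATF4 targets the lowest point is Slc1a5 at -0.40, and among all lists it is Jdp2 at -0.92.

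Genes of serine synthesis and one-carbon metabolism are also under ATF4. Of 5 tested, 1 fell and 0 rose in limma, against 7.28% and 4.24% of all tested genes. The list had 2 lower and 1 higher at an unadjusted p under 0.05, a share not computed over all genes. It had 2 lower and 0 higher with voom, against 1327 and 742 of 10948 genes. The groups did not overlap for 5 of the 5, with 3 point values below 0 and 2 above, against 33.4% of all tested genes. Shmt2, the mitochondrial serine hydroxymethyltransferase, stood at 51.47, 51.34 and 49.35 FPKM with DMSO and at 41.94, 44.2 and 42.95 FPKM with DASA-58 (log2 fold change -0.23, limma adjusted p = 0.0045), and was called under all 19 alternatives. Phgdh, the first enzyme of serine synthesis, was at 4.19 ± 0.297 and 4.93 ± 0.0248 FPKM, and Psat1, the next enzyme, at 18.6 ± 0.762 and 16.8 ± 0.481 FPKM. These neighbours had opposite signs and missed the threshold (log2 fold change 0.19 and -0.14, limma adjusted p = 0.061 and 0.068). Of the 12 tRNA synthetase genes, 2 fell and 0 rose, against 7.28% and 4.24% of all tested genes. At an unadjusted p under 0.05 there were 4 lower and 0 higher, a share not computed over all genes. With voom there were 2 lower and 0 higher, against 1327 and 742 of 10948 genes. The called genes were Iars for isoleucine (log2 fold change -0.17, adjusted p = 0.023) and Mars for methionine (-0.15, adjusted p = 0.027), of which Mars shares 68 exon bases on the opposite strand with Ddit3, while Wars for tryptophan missed the threshold (-0.10, adjusted p = 0.10). The median of the list was -0.07. The call of Mars was kept under 6 of 19 alternatives and lost without DMSO replicate 2 or 3 or any DASA-58 replicate, and that of Iars without DMSO replicate 1 or any DASA-58 replicate.

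The ER branch that runs beside the integrated stress response, through ATF6 and XBP1, was read from 20 genes. They cover chaperones and folding factors, the regulators of the branch, the disposal of misfolded protein and translocation. In limma 3 fell and 0 rose, against 7.28% and 4.24% of all tested genes. At an unadjusted p under 0.05 there were 8 lower and 0 higher, a share not computed over all genes. With voom there were 5 lower and 0 higher, against 1327 and 742 of 10948 genes. The chaperone Calr went from 367 ± 9.73 to 332 ± 3.84 FPKM (log2 fold change -0.14, limma adjusted p = 0.015). Hspa5, the chaperone BiP, went from 169 ± 3.60 to 154.5 ± 2.88 FPKM (-0.13, limma adjusted p = 0.025), and Sec61b, of the translocation channel, from 58.5 ± 2.60 to 49.6 ± 3.33 FPKM (-0.23, limma adjusted p = 0.031). The median of the 20 was -0.09. Below 0 were 19 of the 20 point values, or 18 with libraries centred on the median, against 59.8% and 50.3% of all tested genes. The count of 3 fell to 0 without DASA-58 replicate 2 and to 1 without DMSO replicate 1 or DASA-58 replicate 1 or 3.

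Genes close to the members in sequence or function were compared to see where the members differ from them. Of 14 tested relatives, 1 rose and 1 fell, against 4.24% and 7.28% of all tested genes. Jdp2, a bZIP repressor of the same subfamily as Atf3 that takes part in osteoclast formation, stood at 109.6, 99.59 and 96.1 FPKM with DMSO and at 55.48, 52.1 and 51.69 FPKM with DASA-58. The groups were far apart (log2 fold change -0.92, SE 0.05, limma adjusted p = 7e-05), whereas Atf3 rose. The osteoclast markers fell beside Jdp2 (summed level 754 to 807 against 433 to 450 FPKM), and their part in its change was not tested. The within-library ratio of Atf3 to Jdp2, chosen after the values were seen, was 0.211 ± 0.0113 with DMSO and 2.21-fold higher with DASA-58 at 0.465 ± 0.0275 (exact permutation p = 0.1). Atf3 and Jdp2 each lay apart between the groups, in opposite directions, so that p was fixed in advance. Cebpa, the C/EBP factor of myeloid differentiation, stood at 34.94, 33.24 and 31.35 FPKM with DMSO and at 44.59, 45.38 and 43.66 FPKM with DASA-58 (log2 fold change 0.42, SE 0.04, limma adjusted p = 0.0012). Cebpd was at 13.8 ± 1.61 and 16.6 ± 0.607 FPKM (log2 fold change 0.26, limma adjusted p = 0.071). The ratio of Cebpb to Cebpa was 0.364 ± 0.0922 with DMSO and 0.349 ± 0.0229 with DASA-58, and its groups overlapped (exact permutation p = 1).

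**Figure D5:**
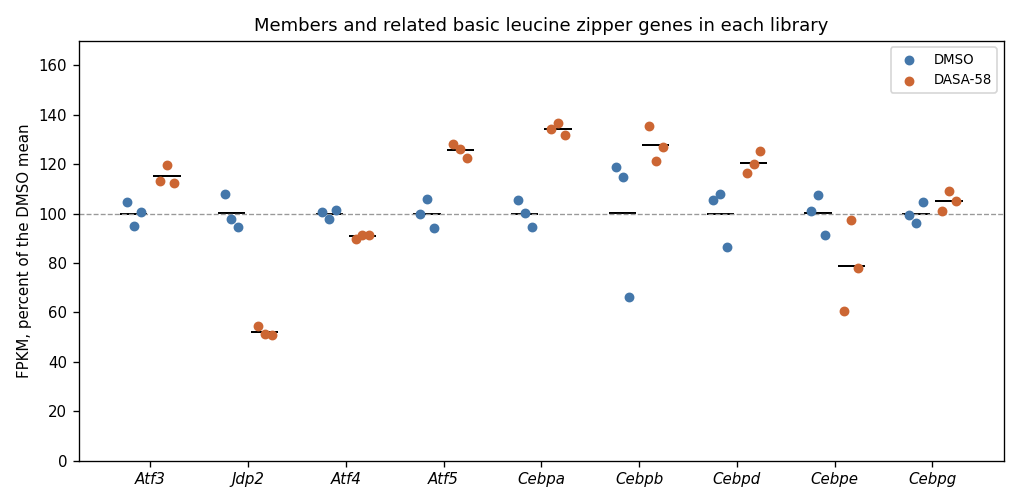
FPKM of members and their bZIP relatives in each library as percent of the mean of the 3 DMSO libraries (y axis, dashed line at the DMSO mean), with one point per library and a bar for the mean of each group. With DASA-58 the mean of Jdp2 lies at 52.2%, that of Cebpa at 134% and that of Atf3 at 115%.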

How the data were processed

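BMM RNA was sequenced in 3 DMSO and 3 DASA-58 libraries. FPKM values of 23504 genes were deposited by the authors in 1 table, scaled to gene length and library depth. The submitters' processing notes name HISAT2 2.1.0, HTSeq 0.6.0 and the build mm8. The table holds no coordinates, and gene lengths of GENCODE M21 (GRCm38) made 21341 genes (90.8%) whole fragments within 0.01, a fitted length 1656 more, and 507 had none. Symbols matched 23455 identifiers and not 49, and 0 value columns were left unmapped. Coordinates in the text are from that annotation or from RefSeq. Fragments give the precision, for counting error only, and the voom alternative.

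The fit was made with limma 3.58.1 (R 4.3.3, lmFit, eBayes with trend) on log2(FPKM + 1), over genes whose mean reached 1 FPKM, and adjusted by Benjamini-Hochberg over all genes tested. The pseudocount understates changes of low genes. No covariate was used. The fit was also run on simulated counts with a single dispersion for all genes and no GC trend. That run does not show how the fit behaves where libraries differ in GC trend. Exact two-sided permutation tests used SciPy 1.17.1. The members, lists and comparisons were chosen with earlier results of these data known. Named genes are the members, the eIF2 kinases, Ppp1r15b and the 3 tested genes of smallest unadjusted p in each list, and overlapping genes and immediate-early genes beyond that rule were added after their values were seen. Alternatives covered the pseudocount, filter, scaling, variance model, GC trend, replicate block, fragment weights and leaving out each library.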

Additional observations from a re-analysis of the deposited data

How the results depend on the processing

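Point changes of Atf4, Atf3, Atf5, Ddit3, Cebpb and Ppp1r15a kept their sign under all 19 alternatives. The count of members called higher, 2, became 1 without a filter, with equal library totals, without the variance trend and with the replicate block, 0 without variance shrinkage, and 1 to 2 with 1 library left out. The count called lower, 1, became 2 with a pseudocount of 0.1, with a filter of 5 FPKM and with equal totals, 0 without the variance trend and with the GC trend removed, and 0 to 1 with 1 library left out. Among the other ATF4 targets, the 1 higher became 3 with the GC trend removed and 2 with voom weights, and the 5 lower became 2 without a filter, 3 without the variance trend, without shrinkage and with the block, and 2 to 4 with 1 library left out. The 3 lower ER genes became 0 without a filter, without the variance trend and without shrinkage, 1 with median or trimmed-mean scaling, 5 with voom, and 0 to 3 with 1 library left out. The cause of these changes was not tested.

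Asns reversed to 0.0031 with median, 0.003 with trimmed-mean and 0.0039 with quantile scaling and ranged from -0.0717 to 0.0209 with 1 library left out. Sesn2 reversed to 0.0231, 0.0233 and 0.0179 under the same scalings and to 0.0458 with the GC trend removed, and ranged from -0.0607 to 0.0351. Trib3 ranged from -0.0076 to 0.1076 and Chac1 from -0.124 to 0.2187 with 1 library left out. Cebpb was called with voom alone (0.40, adjusted p = 0.02, range over alternatives 0.02 to 0.50), and Ppp1r15a with a pseudocount of 0.1, a filter of 5 FPKM or equal totals (adjusted p = 0.049, 0.042 and 0.04, range 0.04 to 0.14).

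The 465 higher and 798 lower calls over all genes (36.8% higher) became 597 and 504 with median scaling (54.2%), 600 and 509 with trimmed means (54.1%), 600 and 588 with quantiles (50.5%), 386 and 958 with equal library totals (28.7%), 670 and 582 with the GC trend removed (53.5%), 257 and 372 without a filter, 341 and 515 without the variance trend, 227 and 314 without shrinkage, 742 and 1327 with voom, and 272 to 375 and 387 to 603 with 1 library left out. With the replicate block they were 378 and 579, and Atf3 had an adjusted p of 0.07. Same-numbered libraries did not deviate together (correlations -0.015, 0.016 and -0.016) and 0 of 6 correlated best with their own number, so the block stands for no known pairing. The GC trend was removed as an alternative chosen after seeing the data. Chac1 rested on the fewest fragments (26 to 61 a library), while Cebpb had the largest standard error (0.18 against 0.16 for Chac1, log2 scale).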

Other observations

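Immediate-early genes, which respond within minutes to growth factor and stress signals, changed in both directions with DASA-58. Of 11 tested, 5 fell (Junb, Egr2, Fos, Egr1 and Zfp36) and 2 rose (Ier3 and Klf6), against 7.28% and 4.24% of all tested genes, and the median log2 fold change was -0.18. Egr1, Zfp36, Ier3 and Klf6 are named after their values were seen. Junb, a partner of FOS in AP-1, stood at 173.6, 178.5 and 165.1 FPKM with DMSO and at 126.5, 130.4 and 126.5 FPKM with DASA-58 (log2 fold change -0.43, limma adjusted p = 0.0004). Fos fell from 99.6 ± 3.23 to 72.9 ± 5.81 FPKM (-0.45, limma adjusted p = 0.0026), and Egr2, a zinc finger factor of macrophages, from 2.67 ± 0.149 to 1.39 ± 0.0817 FPKM (-0.62, limma adjusted p = 0.0014). Atf3, which is also known as an immediate-early gene, rose.

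Mitochondrial chaperones and proteases, which ATF5 is known to regulate, held 1 call of 8 tested in limma, a share near the 11.5% of all tested genes called. The list had 4 lower and 0 higher at an unadjusted p under 0.05, a share not computed over all genes. It had 3 lower and 0 higher with voom, against 1327 and 742 of 10948 genes. All 8 point values were below 0, as were 59.8% of those of all tested genes, and with libraries centred on the median this was 8 of 8 and 50.3%. Hspd1, the chaperone HSP60, fell from 110.8 ± 4.56 to 95.8 ± 2.75 FPKM (log2 fold change -0.21, limma adjusted p = 0.013), and lost the call without DMSO replicate 1 or DASA-58 replicate 3. Hspa9 had a log2 fold change of -0.09 and Hspe1 one of -0.18 (adjusted p = 0.073 and 0.076). Of 10 tested p53 targets, fixed because Sesn2 also answers to p53, 0 were called in limma, against 11.5% of all tested genes. Of the 10, 5 were lower both at an unadjusted p under 0.05 and with voom. Voom called 1327 of 10948 genes lower, and the unadjusted share was not computed over all genes. The median of the list was -0.12, with Phlda3, Plk2 and Mdm2 at -0.18, -0.25 and -0.12 (adjusted p = 0.059, 0.066 and 0.084).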
